A study of Mus musculus with 24 samples.

Results

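Glutathione peroxidases, superoxide dismutases, catalase and the selenium carrier selenoprotein P were followed as a set of 10 genes among the 36528 gene models of this series. The set holds Gpx1, Gpx3, Gpx4, Gpx7, Gpx8, Selenop, Sod1, Sod2, Sod3 and Cat, and all 10 were found by gene identifier. Gpx3 was selected on its measured level, which was higher in every FRC library from PEG mice than in every FRC control library, and the other 9 as its enzyme family and partners. Its values in FRC are therefore a description with no test, as are all values of the set in that contrast.

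The libraries come from Peyer's patches, the lymphoid follicles of the small intestinal wall, and stem from 1000 sorted cells per mouse. There were 7 libraries of fibroblastic reticular cells (FRCs, the fibroblasts of the lymphoid stroma) from mice that drank 10% (w/v) polyethylene glycol (PEG) at will for 3 days, and 7 FRC libraries from unperturbed mice. The other sort took the endothelium of high endothelial venules (HEVs), where lymphocytes leave the blood, and gave 6 libraries from PEG mice and 4 from unperturbed mice. The series set PEG, an osmotic agent, against no treatment to ask how reduced fluid flow affects these cells. Neither strain, sex nor age is given in the labels used here, nor whether FRC and HEV libraries came from the same mice.

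Superoxide dismutases turn superoxide into hydrogen peroxide, which catalase and the glutathione peroxidases then remove. Gpx1 acts in the cytosol and mitochondria, Gpx3 is secreted, Gpx4 reduces lipid peroxides in membranes, and Gpx7 and Gpx8 reside in the endoplasmic reticulum, where they take part in oxidative protein folding. Selenoprotein P is a secreted protein that carries selenium to other tissues through receptors of the Lrp family. Sod1 is the cytosolic copper and zinc enzyme, Sod2 the mitochondrial manganese enzyme and Sod3 the extracellular copper and zinc enzyme bound to matrix.

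The peroxidases of the set divide by the codon of the catalytic residue, shown here because it sets the selenium-dependent enzymes Gpx1, Gpx3 and Gpx4 apart from Gpx7 and Gpx8, which lack selenocysteine. Each line gives 42 bases of the GENCODE M21 coding sequence (mouse GRCm38, 5′ to 3′), with 21 bases before the codon and 18 after it, and the codon in capitals. TGA is read as selenocysteine in these messages, and TGT and TGC encode cysteine. In the Gpx1 transcript the codon is number 47, in exon 1 at chr9:108339451-108339453 (plus strand), and in Gpx3 it is number 73, in exon 2 at chr11:54907256-54907258 (plus strand). In the Gpx4 transcript shown it is number 129, in exon 3 at chr10:80054737-80054739 (plus strand). The cysteine codon is number 56 of Gpx7, in exon 2 at chr4:108403430-108403432 (minus strand), and number 79 of Gpx8, in exon 2 at chr13:113045661-113045663 (minus strand). Selenop carries 10 annotated selenocysteine codons, of which the first, number 59 in exon 2 at chr15:3274848-3274850 (plus strand), is shown.
Gpx1: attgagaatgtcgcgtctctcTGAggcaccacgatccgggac
Gpx3: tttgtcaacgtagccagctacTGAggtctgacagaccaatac
Gpx4: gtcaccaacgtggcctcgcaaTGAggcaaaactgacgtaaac
Gpx7: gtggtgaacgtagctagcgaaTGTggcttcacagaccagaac
Gpx8: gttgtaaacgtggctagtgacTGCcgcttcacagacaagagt
Selenop: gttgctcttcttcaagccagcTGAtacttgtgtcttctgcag

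Each FRC PEG library held 15823379 to 21710946 reads assigned to genes and each FRC control library 12416032 to 18052362, while HEV PEG libraries held 3115003 to 19948766 and HEV controls 14392146 to 17160900. The lowest depth was that of HEV PEG library 16. The labelled cell types carried their markers: the summed level of 8 fibroblast markers was at least 22621 CPM (counts scaled to the library total) in each FRC library and at most 488 CPM in each HEV library, and 5 HEV markers summed to at least 10337 CPM in each HEV library and at most 344 CPM in each FRC library. Intestinal epithelium markers (22 genes) varied widely, with a median sum of 888 CPM (141 to 19229) in FRC PEG, 189 CPM (95.6 to 3316) in FRC control, 2609.5 CPM (49.7 to 5504) in HEV PEG and 884 CPM (16.6 to 8767) in HEV control. The early libraries (1 to 9) differed from the later ones (10 to 24), and within the set this was plain for Gpx1. Its level was 245 to 440 CPM in FRC PEG libraries 1 to 3 and 502.9 to 769.8 CPM in the 4 later ones, and 257 to 351 CPM in FRC control libraries 4 to 6 and 441 to 745 CPM in the 4 later ones. Comparisons were therefore also made within the 3 index pools, the groups of libraries inferred from recurring index pairs.

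The authors' size-factor-scaled RPKM (nRPKM), a level per transcript length, allows the genes to be ranked against each other. In FRC PEG libraries Gpx3 led with a median of 1588 nRPKM (1487 to 1798), followed by Selenop at 908 (645 to 1249.7), and neither range touched that of the next gene. Next came Gpx1 at 361 nRPKM, then Sod3 at 245 and Sod1 at 172, whose neighbouring ranges overlapped. Gpx8 at 101 nRPKM and Gpx7 at 62.8 stood clear of the genes below them, and Sod2 at 32.3, Cat at 29.6 and Gpx4 at 15.0 closed the order with overlapping ranges. FRC control libraries had the same order of medians, with Gpx3 at 990.0 nRPKM (772 to 1364) and Selenop at 597 (374 to 945), whose ranges overlapped.

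HEV cells had another order. Selenop led in HEV PEG at 698 nRPKM (469 to 849), with Gpx1 at 560 (361 to 756) overlapping it, then Sod1 at 197 and Sod2 at 43.9. In HEV control the leading medians were 735 nRPKM for Selenop, 501 for Gpx1, 150.4 for Sod1 and 47.6 for Sod2, and the ranges of the first 3 stood clear of the next gene, while that of Sod2 overlapped that of Cat. Gpx3 ranked 8 in HEV PEG, at 4.31 nRPKM, and 9 in HEV control, at 2.25, and Sod3 was last in both, at 0.212 and 0.895. The level of Gpx4 is uncertain, since pseudogene copies of it exist and only uniquely aligned reads were counted. Gene lengths implied by the nRPKM values of Sod2 and Sod3 were 0.65 and 0.545 of their longest coding transcript and that of Gpx4 was 1.24 of it, so these 3 ranks depend on the gene models used.

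**Figure D1:**
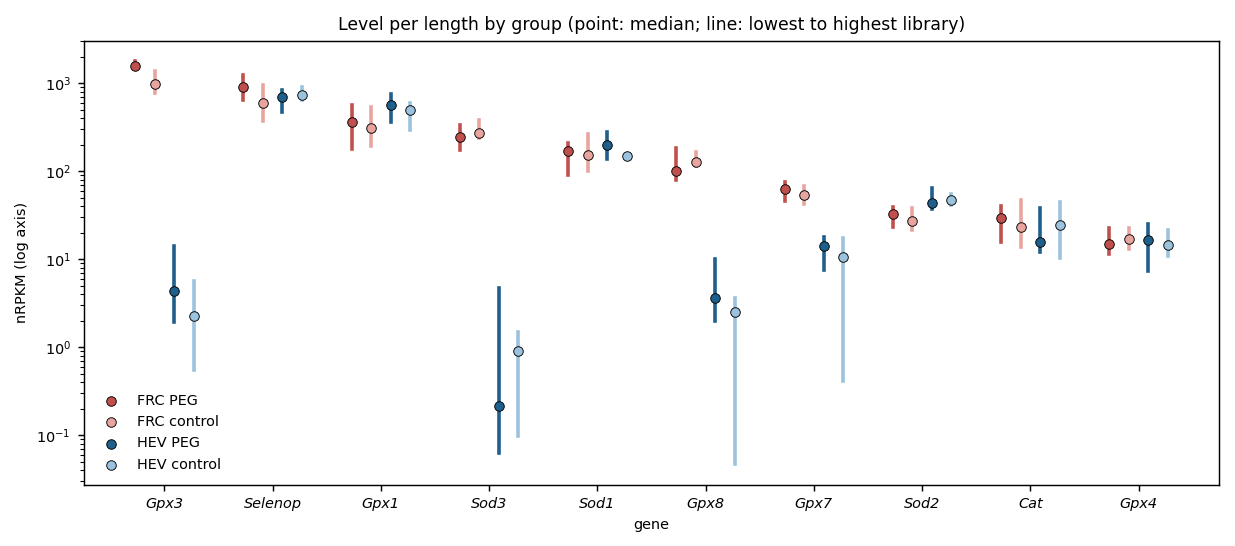
Level per length of each gene (nRPKM, log axis) in the 4 groups (FRC from PEG mice and from controls, then HEV likewise), with points for medians and lines from the lowest to the highest library. Gpx3 has the highest median in both FRC groups (1588 and 990.0 nRPKM) and lies at 4.31 and 2.25 nRPKM in the HEV groups, while Selenop and Gpx1 are high in all 4.

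The comparison of PEG with control in FRCs asked what reduced flow does to the fibroblasts. The level of Gpx3, the secreted peroxidase, had a low of 2928, a median of 3166 and a high of 3469.6 CPM in FRC PEG libraries, and 1547, 1965 and 2647 CPM in FRC control libraries. All 7 PEG values lay above all 7 control values, as the selection required. The nearest values were 2928 CPM in FRC PEG library 2 and 2647 CPM in FRC control library 6. The means were 3183 ± 202 CPM in PEG and 2106 ± 425 CPM in control (SD, n = 7 each), a log2 fold change of 0.64 ± 0.11 (SE, edgeR with pool as covariate). Of the 14595 genes tested, 6 had such a gap with PEG above, which is 0.0411%, and Gpx3 was the only member among them.

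The size of the Gpx3 difference was not the same in the pools, and the control libraries were where it varied. In pool 1 the PEG libraries averaged 3126 CPM and the control libraries 2527 CPM, a ratio of 1.24. In pool 2 the averages were 3146 CPM in PEG and 1825 CPM in control, and in pool 3 they were 3307 CPM in PEG and 1756 CPM in control, ratios of 1.72 and 1.88. The groups did not overlap in any pool. The PEG values spanned 1.18-fold from lowest to highest and the control values 1.71-fold. The fitted log2 difference was 0.88 in libraries 10 to 24 alone, 0.76 with the i5 index added and 0.66 with the epithelial level added, and leaving out single libraries moved it between 0.57 and 0.68. All FRC PEG libraries carry i5 index N503, which only 3 of the 7 FRC controls carry. Against those 3, which averaged 1919 CPM, the PEG ratio was 1.66.

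Selenop, the selenium carrier, had the other difference of this size in FRCs. Its level was 1879, 2621 and 3688 CPM (lowest, median, highest) in FRC PEG and 1086, 1796 and 2634 CPM in FRC control. All 7 PEG libraries exceeded the control median and 3 exceeded every control library, but the groups overlapped. The means were 2571 ± 609 CPM in PEG and 1724 ± 559 CPM in control (SD, n = 7 each), and the log2 fold change was 0.65 ± 0.19 (SE). In pool 1 the means hardly differed, at 2315.5 CPM in PEG and 2228 CPM in control, a ratio of 1.04. In libraries 10 to 24 they were 2763 CPM in PEG and 1346 CPM in control, a ratio of 2.05, with the lowest PEG value of 1879 CPM above the highest control value of 1796 CPM. The log2 difference was 1.08 in those later libraries alone.

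Macrophages, which also make Selenop, were traced in the same libraries by 9 markers, all with reads in both FRC groups. Their summed level was 92.8, 159 and 299.8 CPM (lowest, median, highest) in FRC PEG and 30.5, 147 and 251 CPM in FRC control. Control library 5 had both the highest marker sum and the highest Selenop level among FRC controls, and control library 21 the lowest of both, at 30.5 and 1086 CPM. In FRC PEG the highest Selenop level, in library 10, went with a marker sum of 97.3 CPM, below the group's median. In HEV libraries the marker sum was 11.2, 19.4 and 76.2 CPM (lowest, median, highest) in HEV PEG and 12.5, 136 and 175 CPM in HEV control. The part of macrophage RNA in the Selenop values of either cell type was not tested. In sorted bulk samples, fewer cells of a type and less RNA per cell cannot be told apart.

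**Figure D2:**
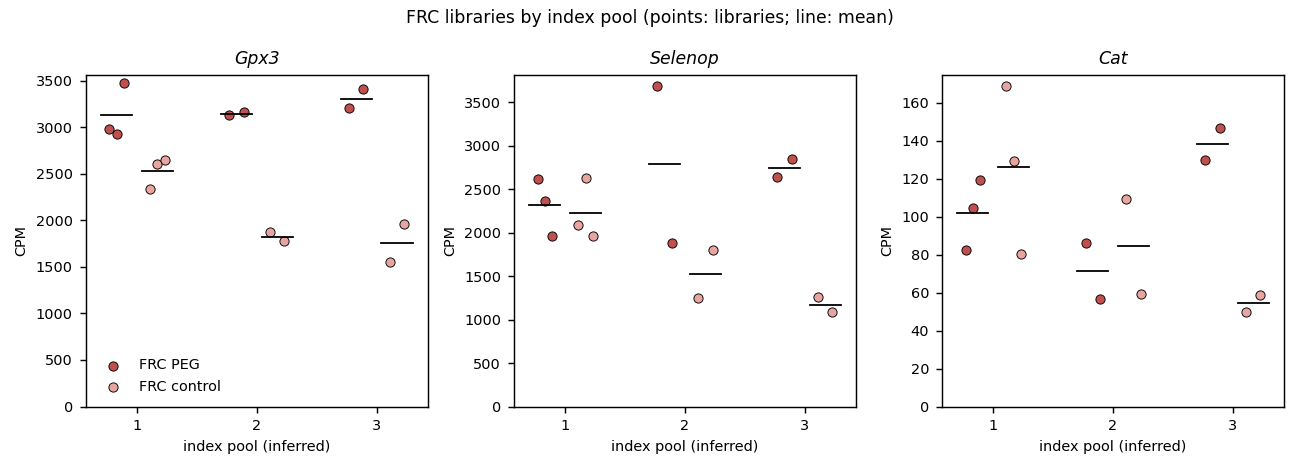
CPM of Gpx3, Selenop and Cat in FRC PEG and FRC control libraries by inferred index pool, with a point for each library and a line at the mean. Gpx3 is higher in PEG in each pool (mean ratios 1.24, 1.72 and 1.88), Selenop has a ratio of 1.04 in pool 1, and Cat is higher in PEG in pool 3 alone.

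Over all 7 libraries of each group, the PEG and control values of the other 8 members overlapped. Within pools 2 and 3, which hold 2 FRC libraries of each group, some were apart. Gpx4 was lower in PEG in pool 2, at 24.4 to 26.5 CPM against 32.1 to 35.9 CPM in control. Sod3 was lower in PEG in pool 3, at 478 to 657 CPM against 672 to 722 CPM, and Cat was higher there, as given below. Gpx1 was at 245, 502.9 and 769.8 CPM (lowest, median, highest) in FRC PEG and 257, 441 and 745 CPM in FRC control, with a log2 fold change of 0.21 ± 0.14 (SE). The ratio of its means was 1.19, 1.12 and 1.08 in pools 1 to 3. Gpx4 was at 18.0, 24.4 and 35.8 CPM in FRC PEG and 21.4, 27.2 and 36.6 CPM in FRC control, a log2 fold change of -0.10 ± 0.27. The ER peroxidase Gpx7 was at 73.4, 96.5 and 122 CPM in FRC PEG and 67.8, 85.3 and 109.6 CPM in FRC control, and Gpx8 at 108, 141 and 264 CPM in FRC PEG and 156, 182 and 241 CPM in FRC control. Their log2 fold changes were 0.15 ± 0.17 and -0.093 ± 0.18.

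The dismutases differed by less than their spread. Sod1 was at 74.8, 146 and 183 CPM (lowest, median, highest) in FRC PEG and 81.7, 129 and 226 CPM in FRC control. Sod2 was at 118, 157 and 199.7 CPM in FRC PEG and 104, 138 and 194 CPM in FRC control. The extracellular Sod3 was at 478, 657 and 892 CPM in FRC PEG and 632, 714 and 1013 CPM in FRC control, with 3 PEG libraries below every control library. The log2 fold changes were -0.090 ± 0.16, 0.18 ± 0.17 and -0.076 ± 0.14 for Sod1, Sod2 and Sod3. Sod3, extracellular like Gpx3, had no gap between the groups.

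Catalase, the peroxisomal peroxide-degrading enzyme, went different ways in the pools. Cat was at 56.4, 105 and 147 CPM (lowest, median, highest) in FRC PEG and 49.98, 80.1 and 169 CPM in FRC control, a log2 fold change of 0.19 ± 0.28. In pool 3 both PEG libraries (129.8 and 147 CPM) lay above both control libraries (49.98 and 58.9 CPM). In pools 1 and 2 the PEG means were lower, at ratios of 0.81 and 0.844. The fitted difference changed sign, to -0.17, with the epithelial level added. The PEG libraries of pool 3 were the FRC libraries with the highest epithelial marker sums, at 19229 and 8657 CPM. The control libraries of pool 3 were at 3316 and 986 CPM, the first of them with the lowest Cat level of the FRC libraries. The part of epithelial RNA in the Cat values was not tested.

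Across all genes, edgeR called none of 14595 in this contrast at a Benjamini-Hochberg adjusted p under 0.05, so the called share is 0.0%. The smallest adjusted p was 0.122, 989 genes had an unadjusted p under 0.05, and the DESeq2 Wald test called 57. Whether members are among those 57 is left out, because the set was built on this contrast. All 10 members passed the filter on low counts. Their log2 fold changes were positive in 6 and negative in 4, with a median of 0.16, against a median of 0.014 over all genes. This count includes the gene the set was built on, and nothing is read from it.

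**Figure D3:**
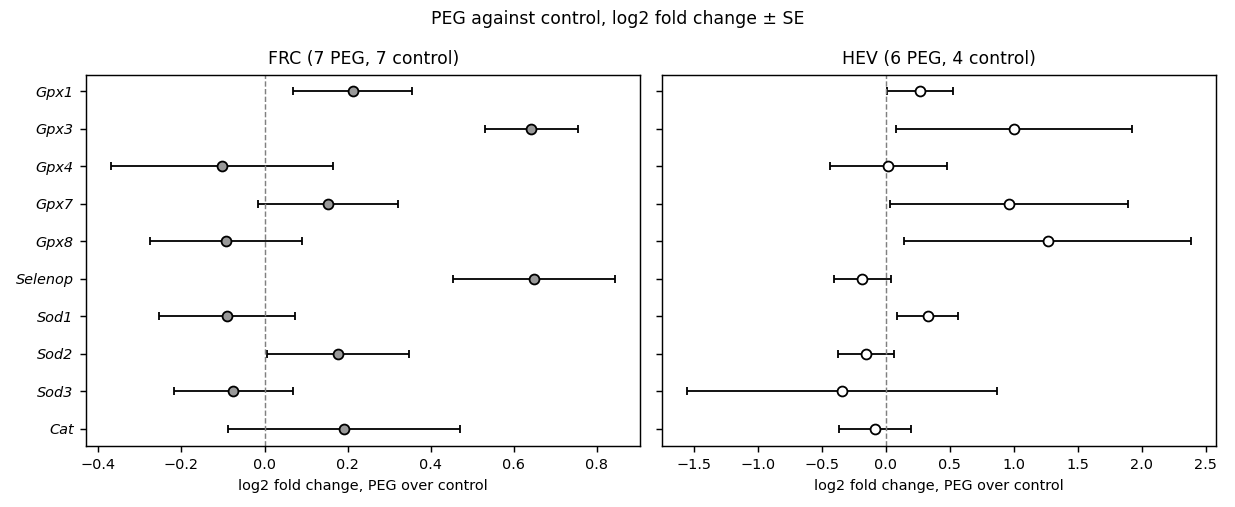
Log2 fold change of PEG over control (± SE) for the 10 genes in FRC and in HEV libraries; grey points are descriptions without a test and open points are tested genes that did not pass. In FRC, Gpx3 (0.64) and Selenop (0.65) stand to the right of the other 8, and in HEV no gene passed.

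The wider antioxidant network of FRCs was read from 10 lists with 142 distinct genes, of which 124 were tested. None was called by edgeR, 14 had an unadjusted p under 0.05, and DESeq2 called 1, the glutathione transferase Gstm1. Its level was 1.28-fold higher in PEG (log2 fold change 0.36 ± 0.094, SE). The list medians lay between -0.12 for the Nrf2 pathway (8 of 21 positive) and 0.19 for glutathione transferases (13 of 18 positive), apart from the list of other glutathione peroxidases, where Gpx2 was the only gene tested. Gpx2, the epithelial peroxidase, averaged 33.3 ± 44.9 CPM in FRC PEG and 4.44 ± 5.44 CPM in FRC control (SD, n = 7 each). Its log2 fold change was 3.601 ± 1.20, and the part in it of epithelial RNA, whose marker sums are given above, was not tested.

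Among the partners of the members, the 2 genes of smallest p in each list were taken. Ccs, the chaperone that loads copper into Sod1, had a log2 fold change of 0.79 ± 0.20 (SE) and the copper oxidase Cp 0.30 ± 0.14. Secisbp2, which lets ribosomes read TGA as selenocysteine, had 1.15 ± 0.34, and the receptor Lrp1 had -0.26 ± 0.13. Of other selenoproteins, Txnrd2 had 0.36 ± 0.25 and Selenof 0.23 ± 0.17. None of these 6 passed the adjusted threshold. In glutathione supply, Pgd, which makes NADPH, had 0.54 ± 0.22 and Glrx2 -0.41 ± 0.18, and the transferase Gsto1 had 1.22 ± 0.50. Of thioredoxin genes, Txn2 had 0.51 ± 0.23 and Sesn1 -0.33 ± 0.18. Keap1, the repressor of Nrf2, had -0.46 ± 0.24 and Hmox2 0.39 ± 0.24. Among peroxide producers, Maoa had 1.65 ± 0.49, and of the repair and detoxifying enzymes Pon2 had 0.78 ± 0.18 and Aldh2 0.23 ± 0.12.

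The same comparison in HEV cells used libraries that played no part in the choice of Gpx3. No member was called, and none of all 14308 genes was, a share of 0.0%. The smallest adjusted p over all genes was 0.64, 886 had an unadjusted p under 0.05 and the DESeq2 Wald test called 116, no member among them. The members' log2 fold changes were positive in 6 and negative in 4, with a median of 0.145, against 0.013 over all genes. No member had PEG and control groups apart, which 77 genes, 0.538% of those tested, had with PEG above.

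**Figure D4:**
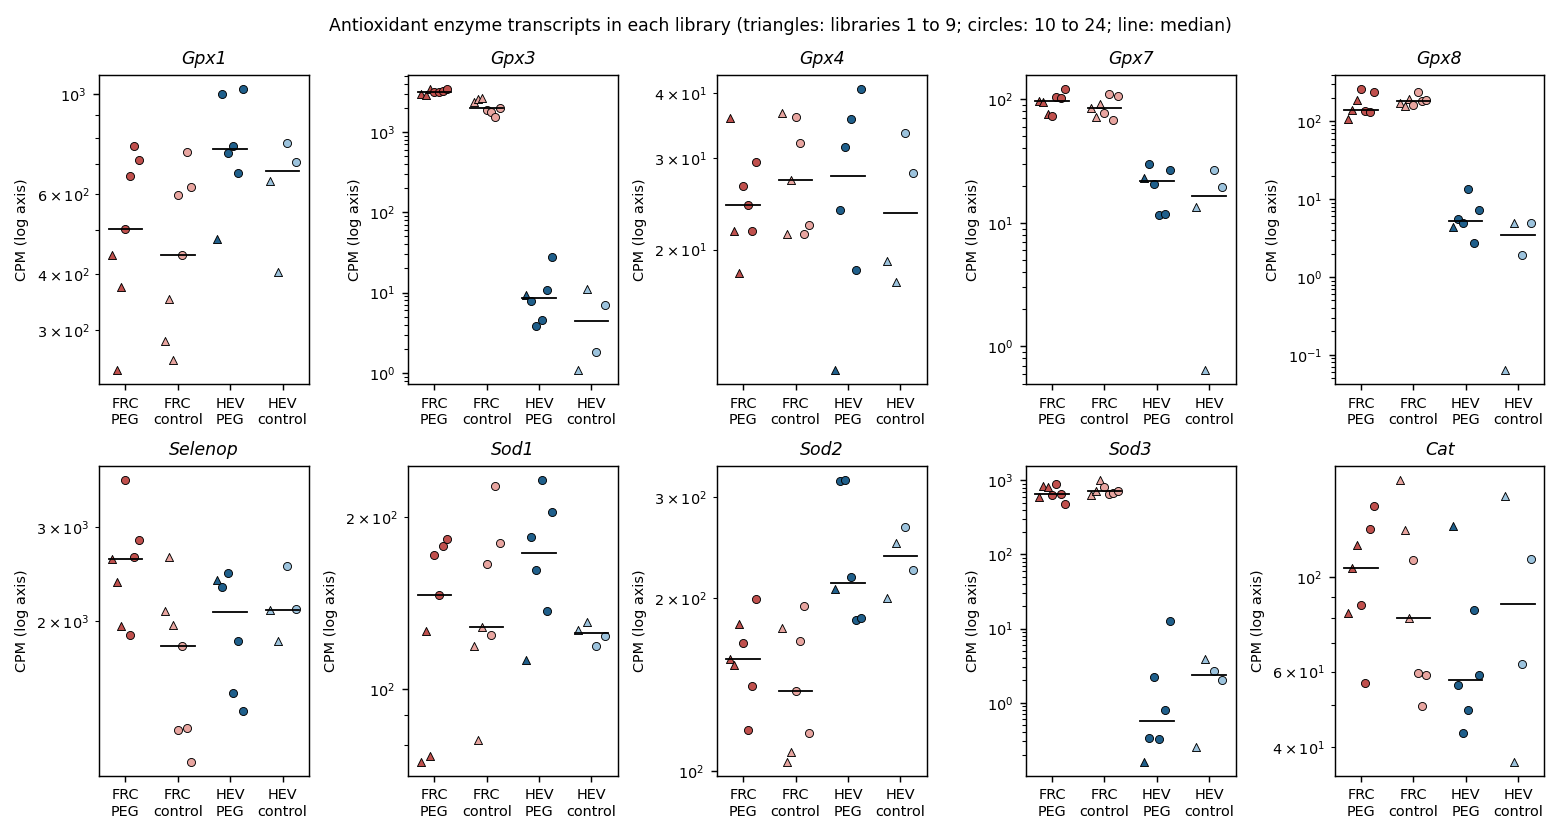
CPM of each of the 10 genes in every library (log axes), with triangles for libraries 1 to 9, circles for libraries 10 to 24 and a line at the group median. Gpx3, Gpx7, Gpx8 and Sod3 are lower in all HEV than in all FRC libraries, and the FRC PEG libraries lie above the FRC controls throughout for Gpx3 alone.

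Gpx3 was scarce in HEV libraries, at 3.86, 8.64 and 28.1 CPM (lowest, median, highest) in HEV PEG and 1.08, 11.0, 1.84 and 7.02 CPM in HEV control. The groups overlapped, and the log2 fold change was 1.00 ± 0.93 (SE), with an adjusted p of 0.875 (edgeR). That value ran from 0.51 without HEV control library 8 to 2.42 without HEV control library 9. Selenop was abundant, at 1354, 2076 and 2462 CPM in HEV PEG and 2099, 1832, 2534 and 2102 CPM in HEV control. No HEV PEG library exceeded the highest control, and 2 lay below the lowest. Its log2 fold change was -0.19 ± 0.22 (adjusted p 0.906, edgeR).

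Gpx1, the most abundant peroxidase of HEV cells, was at 478, 755 and 1029 CPM (lowest, median, highest) in HEV PEG and 644, 404, 782 and 709 CPM in HEV control. The groups overlapped, and the fitted log2 difference was 0.27 ± 0.26 (SE, adjusted p 0.878, edgeR). Sod1 was at 113, 173 and 232 CPM in HEV PEG and 127, 131, 119 and 124 CPM in HEV control. Of 6 PEG libraries 5 exceeded every control, yet library 7 lay below them all, and the log2 fold change was 0.33 ± 0.24 (adjusted p 0.851). Sod2 was at 183, 213 and 322 CPM in HEV PEG and 200.1, 249.8, 267 and 224 CPM in HEV control, with a log2 fold change of -0.15 ± 0.22 (adjusted p 0.925).

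The remaining HEV differences were small or rested on few reads. Cat was at 43.1, 57.4 and 131 CPM in HEV PEG and 155, 36.9, 62.5 and 110.5 CPM in HEV control, and Gpx4 at 11.7, 27.7 and 40.8 CPM in HEV PEG and 19.0, 17.3, 33.6 and 28.1 CPM in HEV control. Their log2 fold changes were -0.088 ± 0.28 and 0.020 ± 0.45. Gpx7 was at 11.6, 21.9 and 29.9 CPM in HEV PEG and 13.5, 0.64, 26.9 and 19.5 CPM in HEV control. Gpx8 was at 2.76, 5.25 and 13.5 CPM in HEV PEG and 0.0633, 5.01, 1.91 and 5.00 CPM in HEV control, where the lowest value is a single read. Sod3 was at 0.160, 0.563 and 12.5 CPM in HEV PEG and 0.253, 3.904, 2.66 and 2.02 CPM in HEV control. The log2 fold changes were 0.97 ± 0.93, 1.26 ± 1.12 and -0.34 ± 1.21, and adjusted p ranged from 0.872 to 0.997 over these 5 genes (edgeR). The value of Gpx7 ran from 0.028 without HEV control library 9 to 1.67 without HEV PEG library 22, and that of Gpx8 from 0.54 without HEV control library 8 to 1.78 without HEV control library 9. The value of Sod3 ran from -1.55 without HEV PEG library 23 to 0.85 without HEV control library 9.

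Of 142 antioxidant list genes, 120 were tested in HEV cells and none was called, 4 had an unadjusted p under 0.05 and DESeq2 called none. The list medians, that of Gpx2 aside, lay between -0.026 for selenoprotein synthesis and uptake and 0.51 for glutathione transferases. Adjusted p was at least 0.794 for all genes named here (edgeR). The largest log2 fold changes were in genes with wide errors: the aldehyde oxidase Aox1 had 4.59 ± 1.77 (SE), the sulfiredoxin Srxn1 3.18 ± 1.60, Cp 2.55 ± 1.19 and Gpx2 2.54 ± 1.37. Gpx2 averaged 21.2 ± 18.2 CPM in HEV PEG (SD, n = 6) and 4.32 ± 4.56 CPM in HEV control (SD, n = 4). The transferases Mgst2 and Gsto1 had 1.61 ± 0.71 and 1.42 ± 0.45, and Selenon 1.34 ± 0.54 and Selenow 0.40 ± 0.26. Sesn1 had 1.32 ± 0.62, Mt2 1.13 ± 0.75, Msrb3 1.15 ± 0.53, Lrp1 1.14 ± 1.33, Glrx 0.78 ± 0.50, Aldh2 0.55 ± 0.32 and Gsr 0.52 ± 0.35. Negative values stood at Sephs1, of the selenophosphate synthetase family, with -0.80 ± 0.39, and at Nfe2l2, the gene of Nrf2, with -0.35 ± 0.21.

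Whether PEG acted differently in the 2 cell types was tested as the HEV effect minus the FRC effect over all 24 libraries. No member was called, by edgeR or DESeq2, against 2 of 18203 genes, 0.011%, by edgeR. The differences were positive in 7 and negative in 3 members, with a median of 0.23, against 0.04 over all genes. This count and median include Gpx3, and nothing is read from them. The member of smallest p was Selenop, with a difference of -0.83 ± 0.31 on the log2 scale (SE, unadjusted p 0.0133, adjusted p 0.365, edgeR). The 2 effects behind it were -0.19 in HEV and 0.65 in FRC, the second of which is a description. In libraries 10 to 24 alone the difference was -1.65. The differences of Gpx8, Sod1 and Gpx7 were 1.11 ± 0.64, 0.44 ± 0.28 and 0.50 ± 0.66, and that of Gpx3, given without a test, was 0.35 ± 0.65. It ran from -0.19 without HEV PEG library 23 to 1.34 without HEV control library 9. For Gpx1 it was 0.016 ± 0.28, for Gpx4 0.19 ± 0.49, for Sod2 -0.24 ± 0.28, for Sod3 0.27 ± 1.00 and for Cat -0.40 ± 0.43, with adjusted p from 0.581 to 1.0 over the 8 tested members other than Selenop (edgeR).

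None of the 134 list genes tested for this difference was called by edgeR, 16 had an unadjusted p under 0.05, and DESeq2 called 2. Over all 18203 genes, 1834 had an unadjusted p under 0.05 and DESeq2 called 360. The list medians, that of Gpx2 aside, lay between -0.36 for peroxide producers and 0.74 for copper supply. Aox1, which DESeq2 called, had a difference of 4.76 ± 1.60 (log2, SE; edgeR adjusted p 0.315). Positive differences were also those of Cp (1.84 ± 0.66), Msrb3 (1.80 ± 0.68), Selenon (1.38 ± 0.55), Srxn1 (3.12 ± 1.45), Sesn1 (1.60 ± 0.79) and Idh1 (0.83 ± 0.49). Negative ones were those of Secisbp2 (-1.11 ± 0.51), Sephs1 (-0.71 ± 0.45), Ccs (-1.02 ± 0.41), Pon2 (-0.85 ± 0.42), Gstt3 (-1.06 ± 0.40) and Nfe2l2 (-0.56 ± 0.27). Gstm7 (-4.47 ± 2.12), Dio1 (-6.86 ± 2.47), Chac1 (-3.67 ± 2.23) and Gpx2 (-1.29 ± 1.53) had wide errors. The adjusted p of these genes lay between 0.338 and 0.838 (edgeR).

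The widest contrast in the set was between the cell types. The levels of Gpx3, Sod3, Gpx8 and Gpx7 were lower in all HEV libraries than in all FRC libraries of the same treatment, while Sod2 was higher in HEV controls. The share of all genes that separate the cell types in this way was not counted, so nothing is read from the number of such members. Gpx3 was left out of the counts of calls, since its FRC values chose the set. Of the 9 other members, edgeR called 3 lower in HEV under PEG (Gpx7, Gpx8 and Sod3) and 0 higher, where 14.4% of 14991 genes were lower and 12.5% higher. In controls it called the same 3 lower and Sod2 higher, where 14.2% of 15743 genes were lower and 10.4% higher. The log2 fold changes were negative in 7 of 10 members under PEG, with a median of -0.385, and in 6 of 10 in controls, with a median of -0.19. The medians over all genes were -0.082 and -0.16. These member counts and medians include Gpx3, and nothing is read from them. FRC and HEV libraries may in part share mice.

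Gpx3 averaged 5.24 ± 4.67 CPM in HEV control (SD, n = 4) and 2106 ± 425 CPM in FRC control (SD, n = 7), a log2 fold change of -8.67 ± 0.75 (SE). Under PEG the averages were 10.7 ± 8.92 CPM in HEV (n = 6) and 3183 ± 202 CPM in FRC (n = 7), a log2 fold change of -8.35 ± 0.41. Both values are given without a test. Sod3, the other extracellular enzyme, averaged 2.21 ± 1.52 CPM in HEV control and 746 ± 131 CPM in FRC control, with -8.50 ± 0.64 as its fitted log2 difference (adjusted p 2.2e-06, edgeR). Under PEG it averaged 2.73 ± 4.86 CPM in HEV and 699 ± 150.1 CPM in FRC, a log2 fold change of -8.55 ± 1.04 (adjusted p 5.46e-05). The HEV values of both genes rest on few reads, from 14 to 406 per library for Gpx3 and from 1 to 181 for Sod3.

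The cysteine peroxidases of the endoplasmic reticulum, whose codons are shown above, were the other members with lower levels in HEV. Gpx8 averaged 3.00 ± 2.44 CPM in HEV control and 185 ± 28.5 CPM in FRC control, with a fitted log2 difference of -6.22 ± 0.78 (SE, adjusted p 0.000114, edgeR). Under PEG it averaged 6.39 ± 3.76 CPM in HEV and 172 ± 58.9 CPM in FRC, a log2 fold change of -4.92 ± 0.38 (adjusted p 4.51e-07). Gpx7 had the smaller difference. It averaged 15.1 ± 11.1 CPM in HEV control and 87.2 ± 16.5 CPM in FRC control, a log2 fold change of -2.92 ± 0.73 (adjusted p 0.0119). Under PEG the averages were 20.6 ± 7.64 CPM in HEV and 95.6 ± 16.8 CPM in FRC, a log2 fold change of -2.17 ± 0.29 (adjusted p 6.94e-05). In HEV control library 9 Gpx7 was at 0.64 CPM, and without that library the control value was -2.14. Of the TGA peroxidases, Gpx1 and Gpx4 were not called in either contrast. Gpx3 had the largest difference of the 5 peroxidases, but its values are a description, and nothing is read from them about the codon classes.

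FRC RNA in the HEV libraries was gauged by the 8 fibroblast markers, as a percentage of their FRC median. The markers stood at 0.0209% to 0.234% of that median in 9 HEV libraries and at 1.84% in HEV control library 9. Gpx3 stood at 0.0547% to 0.887% of its own FRC median and Sod3 at 0.0244% to 1.91%. Gpx7 stood higher, at 12.0% to 31.5% in those 9 libraries, and Gpx8 at 1.96% to 9.58% in all 6 HEV PEG libraries and 0.0348% to 2.75% in HEV controls. The Gpx7 share exceeded the marker share in all HEV libraries but control 9, and the Gpx8 share in all but control 8. The Gpx3 share exceeded it in all 6 HEV PEG libraries and in control 24. The Sod3 share exceeded it in HEV PEG libraries 7, 14, 15 and 23 and in controls 17 and 24. The part of FRC RNA in the HEV values of Gpx3, Sod3, Gpx7 and Gpx8 was not tested.

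Sod2, the mitochondrial dismutase, averaged 235 ± 29.3 CPM in HEV control (SD, n = 4) and 144 ± 36.5 CPM in FRC control (SD, n = 7). All 4 HEV values lay above all 7 FRC values, and the log2 fold change was 0.72 ± 0.22 (SE, adjusted p 0.0306, edgeR). The call did not hold with no filter on low counts, in libraries 10 to 24 alone, or without any 1 of FRC control libraries 12 and 21 and HEV control libraries 8, 9 and 17. The adjusted p ranged from 0.0126 to 0.0786 with single libraries left out. Under PEG, Sod2 averaged 239 ± 64.7 CPM in HEV and 159 ± 26.6 CPM in FRC, with 4 of 6 HEV libraries above all FRC libraries and a log2 fold change of 0.57 ± 0.20 that missed the threshold (adjusted p 0.0519).

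Selenop, Gpx1, Sod1, Cat and Gpx4 did not pass in either contrast. Selenop had opposite signs, with log2 fold changes of -0.38 ± 0.20 under PEG (SE, adjusted p 0.2, edgeR) and 0.53 ± 0.21 in controls (adjusted p 0.0865). The control value passed without HEV control library 8, at 0.83, and in libraries 10 to 24 alone, at 1.12. Gpx1 was 1.34-fold higher in HEV under PEG and 1.32-fold higher in controls, with log2 fold changes of 0.42 ± 0.18 (adjusted p 0.104) and 0.40 ± 0.23 (adjusted p 0.252). Sod1 had 0.19 ± 0.19 under PEG and -0.21 ± 0.23 in controls, Cat -0.39 ± 0.23 and 0.15 ± 0.37, and Gpx4 -0.027 ± 0.38 and -0.16 ± 0.42. Without HEV PEG library 22 Gpx1 passed under PEG, and without HEV PEG library 7 so did Cat, at -0.70.

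**Figure D5:**
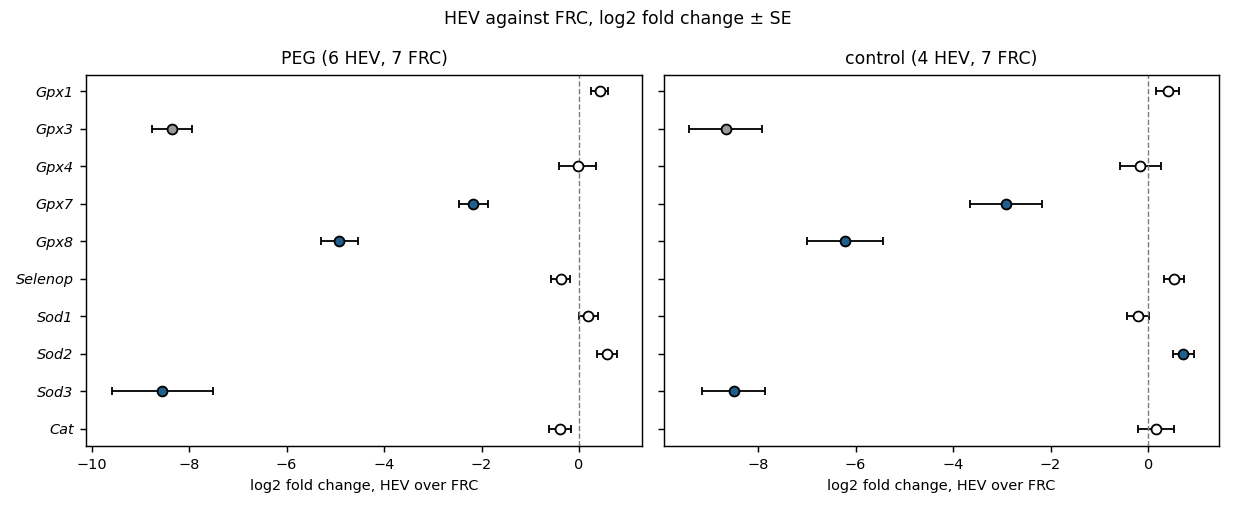
Log2 fold change of HEV over FRC (± SE) for the 10 genes, under PEG and in controls; blue points passed the edgeR test, the grey points, those of Gpx3, are descriptions without a test and open points did not pass. Gpx3, Sod3, Gpx8 and Gpx7 lie left of 0 in both panels, between -8.67 and -2.17, and Sod2 passed in controls alone.

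The surrounding antioxidant genes were read against the same shares of all genes. Under PEG, 17 of 127 list genes were higher in HEV (13.4%, against 12.5% of all genes) and 38 lower (29.9%, against 14.4%). In controls 8 of 125 were higher (6.4%, against 10.4%) and 34 lower (27.2%, against 14.2%). Of the lower ones, 5 under PEG and 4 in controls did not pass the filter within HEV libraries, so they were tested through their FRC reads. Glutathione transferases were lower in HEV for 8 of 18 genes in both contrasts and higher for 1. The lower share of 44.4% stands against 14.4% of all genes under PEG and 14.2% in controls. Under PEG it includes Gstm7, which did not pass the filter within HEV libraries. The higher share was 5.56%, against 12.5% of all genes under PEG and 10.4% in controls. The list median was -0.95 under PEG and -1.16 in controls, against -0.082 and -0.16 over all genes. Gstt1 had log2 fold changes of -4.77 ± 0.37 (SE, adjusted p 4.81e-07, edgeR) and -4.75 ± 0.32 (adjusted p 8.51e-07) under PEG and in controls. The microsomal Mgst1 had -2.47 ± 0.27 and -2.84 ± 0.24, Gstm1 had -1.52 ± 0.16 and -1.35 ± 0.19, Gstm5 had -2.44 ± 0.39 under PEG and Gstp1 -1.18 ± 0.25 in controls. Gstm and Gstp genes have close copies among which unique reads can be lost.

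Of the copper supply list 2 of 8 genes were lower and 1 higher in HEV under PEG, and 3 lower and 1 higher in controls, where 14.4% and 14.2% of all genes were lower, with medians of -0.43 and -0.45. Cp, which oxidises iron and carries copper, had log2 fold changes of -5.11 ± 0.56 (SE, adjusted p 1.03e-05, edgeR) under PEG and -6.60 ± 0.58 (adjusted p 7.3e-06) in controls. Atox1, the copper chaperone of the secretory route that supplies enzymes such as Sod3, was higher in HEV, at 1.75 ± 0.21 (adjusted p 2.51e-05) under PEG and 1.02 ± 0.28 (adjusted p 0.0212) in controls, the second of which was 0.61 and did not pass without HEV control library 8. Ccs was lower under PEG, at -1.33 ± 0.28 (adjusted p 0.00243), and the metallothioneins Mt1 and Mt2 were lower in controls, at -4.11 ± 0.27 and -2.12 ± 0.44. Of the 10 tested genes of selenoprotein synthesis and selenium uptake, 1 was lower and 1 higher in both contrasts, 10.0% each way and near the share over all genes, with medians of -0.53 and 0.20. The receptor Lrp1 had -5.99 ± 0.79 (adjusted p 9.26e-05) and -7.30 ± 0.69 (adjusted p 1.25e-05), and Trnau1ap, a helper of selenocysteine insertion, had 0.92 ± 0.23 and 1.06 ± 0.27. These values of Trnau1ap did not pass without HEV PEG library 7 under PEG and without HEV control library 9 in controls. In controls, Trnau1ap also did not pass in libraries 10 to 24 alone, nor did Atox1 with no covariate.

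Among peroxide producers, 5 of 16 tested genes were lower and 2 higher in HEV under PEG, and 6 of 15 lower and none higher in controls. These are lower shares of 31.2% and 40.0%, against 14.4% and 14.2% of all genes. The higher shares were 12.5% and 0.0%, against 12.5% and 10.4% of all genes. Nox4, Loxl1 and Loxl2, counted as lower in both, did not pass the filter within HEV libraries and are given as levels only. Nothing is read from the lower shares, which include them. Loxl1 and Loxl2 are lysyl oxidases, which release hydrogen peroxide while they crosslink collagen. Loxl1 averaged 0.284 ± 0.314 CPM in HEV PEG and 146 ± 49.4 CPM in FRC PEG, and 0.0766 ± 0.0725 CPM in HEV control and 160.4 ± 43.3 CPM in FRC control (SD). Loxl2 averaged 0.290 ± 0.342 CPM in HEV PEG and 125 ± 47.4 CPM in FRC PEG, and 1.38 ± 2.09 CPM in HEV control and 148 ± 24.3 CPM in FRC control. Nox4, a peroxide-forming NADPH oxidase, had no read in any HEV library and averaged 12.2 ± 13.4 CPM in FRC PEG and 16.7 ± 20.1 CPM in FRC control. Lox, which passed the filter in both cell types, had log2 fold changes of -6.78 ± 0.97 (SE, adjusted p 0.000122, edgeR) under PEG and -7.17 ± 1.39 (adjusted p 0.00277) in controls. Xdh had -1.26 ± 0.21 under PEG (adjusted p 0.000416).

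In the thioredoxin list 6 of 16 genes were lower and 1 higher in HEV in both contrasts, a lower share of 37.5% against 14.4% of all genes under PEG and 14.2% in controls. The higher gene was Txnrd1, a cytosolic thioredoxin reductase, with log2 fold changes of 1.78 ± 0.25 (SE, adjusted p 0.000113, edgeR) under PEG and 1.64 ± 0.29 (adjusted p 0.00153) in controls. Prdx4, the peroxiredoxin of the endoplasmic reticulum, had -1.39 ± 0.21 under PEG and -1.71 ± 0.19 in controls, and Prdx2 had -0.68 ± 0.15 and -0.85 ± 0.16. Txnip was lower under PEG (-0.68 ± 0.18) and Sesn1 in controls (-3.98 ± 0.72). The Txnip call was lost with no covariate and the Sesn1 call in libraries 10 to 24 alone. The list median was -0.68 under PEG and -0.73 in controls. The Nrf2 list had 8 of 21 genes higher (38.1%, against 12.5% of all genes) and 6 lower (28.6%, against 14.4%) under PEG and 4 of each in controls (19.0%, against 10.4% and 14.2%), with medians of 0.19 and 0.62. The ferritin genes Fth1 and Ftl1, which have many processed copies, had -0.91 ± 0.17 and -1.11 ± 0.16 under PEG and -1.14 ± 0.14 and -1.23 ± 0.15 in controls. Nfe2l1, a relative of Nrf2, had 1.45 ± 0.29 and 1.39 ± 0.19, and Nfe2l2 had 1.33 ± 0.19 in controls (adjusted p from 4.93e-05 to 0.0103 for the genes named after Txnrd1, edgeR).

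Glutathione supply had 4 of 19 genes higher and 3 lower in HEV under PEG, and 1 of 18 higher and 2 lower in controls, with medians of -0.26 and -0.42. The lower shares of 15.8% and 11.1% lay near the 14.4% and 14.2% of all genes. The higher shares were 21.1% and 5.56%, against 12.5% and 10.4% of all genes. Nothing is read from the 21.1% under PEG, which includes Chac1, a gene tested through its HEV reads. Slc3a2, the heavy chain of the cystine transporter, had log2 fold changes of 2.25 ± 0.24 (SE, adjusted p 8.67e-06, edgeR) under PEG and 1.97 ± 0.21 (adjusted p 2.95e-05) in controls, while its partner Slc7a11 had -2.76 ± 0.86 under PEG (adjusted p 0.0278). The glutathione-degrading Ggt5 had -2.78 ± 0.32 and -2.72 ± 0.36, and Idh1 had -1.63 ± 0.25 in controls. Chac1, counted as higher under PEG, did not pass the filter within FRC libraries, and averaged 7.58 ± 8.64 CPM in HEV PEG and 0.866 ± 1.78 CPM in FRC PEG. Of other selenoproteins, 5 of 16 were lower and 1 higher under PEG, and 4 of 16 lower and 1 higher in controls, read against the same shares of all genes, with medians of -0.38 and -0.33. Selenom had -1.998 ± 0.27 and -2.23 ± 0.37, Selenow -0.81 ± 0.19 and -1.33 ± 0.21, and Selenon had -2.45 ± 0.62 in controls. Dio2, counted as lower in both contrasts, did not pass the filter within HEV libraries, and averaged 0.0397 ± 0.0662 CPM in HEV PEG and 7.51 ± 6.02 CPM in FRC PEG. Of 12 repair and detoxifying enzymes, 3 were lower under PEG and 1, or 8.33%, in controls, with medians of -0.36 and -0.34. The aldehyde dehydrogenase Aldh2 had -2.52 ± 0.22 and -2.77 ± 0.24, and Aifm2 and Pon3 had -1.48 ± 0.43 and -2.79 ± 0.91 under PEG, whereas Msrb3 did not pass in controls at -1.06 ± 0.41 (adjusted p 0.0838). Several of these calls were lost without a single library: Aifm2 without HEV PEG library 7, Selenon without HEV control library 8 or 9, Slc7a11 without FRC PEG library 11 or HEV PEG library 7, 14, 15 or 16, and Pon3 without FRC PEG library 10 or 11 or HEV PEG library 14 or 16. Other settings removed calls as well. In libraries 10 to 24 alone, Aifm2 and Slc7a11 did not pass under PEG, nor did Selenon and Idh1 in controls. Pon3 did not pass under PEG with no covariate or with all 24 libraries in 1 model. Gpx2 was within its error of 0, at -0.13 ± 0.92 under PEG and -0.79 ± 1.30 in controls.

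The genes whose levels were most like Gpx3 over the 14 FRC libraries were Arf1, Slc25a3, Tmem222, Erlin2 and Mfap4, ranked by Pearson r of log2(CPM + 1) among 11682 genes. The r values were 0.91, 0.90, 0.83, 0.83 and 0.83, and Spearman's rho ran from 0.55 to 0.85. Selenop ranked 32, with an r of 0.76 and a rho of 0.63, and the next member, Cat, ranked 660 with an r of 0.48. Since Gpx3 separates the PEG from the control libraries, any gene that differs between these groups scores high, and the libraries also share pools. Mfap4, a microfibril protein, was at 517 CPM in FRC PEG, 360.2 CPM in FRC control, 0.14 CPM in HEV PEG and 3.45 CPM in HEV control. Over all 24 libraries, where the cell types lie apart, the top 5 of 11864 genes were Rab34, Ogn, Aldh1a2, Rbp4 and Lama2, each at 190.1 CPM or more on average in the FRC groups and at most 1.70 CPM in the HEV groups. Sod3 ranked 14 and Gpx8 106 there.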

How the data were processed

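RNA of sorted cells was sequenced as polyA libraries, 1 per deposited file, after template switching and a transposase-based library kit, per the labels' protocols. Reads were cleaned and counted with HTSeqGenie and only uniquely mapped reads kept, per the labels' protocols. They were aligned with GSNAP to mm9, per the submitters' processing notes. The labels' protocol names a human build, taken as a slip since the gene identifiers are mouse. Versions and gene annotation are not given in the sources used here.

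Per gene, the deposited files list the count of reads and, per the file headers, an RPKM value, which the authors scaled by a size factor (nRPKM). For the 10 members the ratio of count to nRPKM times the labelled size factor was constant over libraries. The gene length it implies was within 20% of the longest coding transcript for 70.3% of 219 list genes. RefSeq named 85.0% of identifiers, with 97.3% of the reads. Counts carry no strand information. Depth ranged from 3115003 to 21710946 reads per library, and no member was at 0 in any library. Reads without molecular identifiers are not independent molecules.

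Groups follow the labels. Index pools (libraries 1 to 8, 9 to 16 and 17 to 24) were inferred from recurring index pairs. Counts were filtered (filterByExpr, minimum count 10), TMM-scaled and fitted in edgeR 4.0.16 (quasi-likelihood test, two-sided, robust, pool as covariate; R 4.3.3 with limma 3.58.1), with Benjamini-Hochberg adjustment over all genes tested and a threshold of 0.05. SE is the standard error of a log2 fold change. Code was tested on simulated data. CPM uses the library total. Members and lists were chosen with earlier results of these data known. All members were named, with up to 4 called genes of smallest p per list and comparison, or 2 by p where fewer than 2 were called, and the 5 genes of highest r with Gpx3 at a mean of at least 5 CPM. A gene that this rule names is not reported here. Gpx3 was fitted in every comparison, and its p is left out where FRC values enter. Alternatives were other size factors, no filter or a minimum of 50, DESeq2 1.42.0, other covariates (none, i5 index, epithelial level), all 24 libraries in 1 model, libraries 10 to 24 alone, and each library left out. Libraries of 1 cell type are from different mice, and p-values reflect the spread between them; those of different cell types may share mice. Codons were read from GENCODE M21 transcripts (GRCm38), and no position was carried over to mm9.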

Additional observations from a re-analysis of the deposited data

Results flagged for a closer look

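In 40 combinations of a member and a group, the highest or lowest library was set against the rest by Dixon's ratio at its 95% level. The ratio was taken on CPM, not on a log scale. Chance flags about 1 in 20 such groups if their values are normally distributed, which was not tested and low counts need not be. Of the 40, 2 were flagged, both in the same library, and nothing is read from that number. Gpx3 was at 28.1 CPM in HEV PEG library 23, with the other 5 HEV PEG libraries at 3.86 to 10.7 CPM. Sod3 was at 12.5 CPM in that library, with the others at 0.160 to 2.26 CPM. Its 8 fibroblast markers summed to 15.2 CPM, within the 5.54 to 62.0 CPM of HEV PEG libraries, and its epithelial markers to 5504 CPM, the highest of that group. The part of RNA of other cells in these values was not tested. Without this library the log2 fold change of PEG over control in HEV was -1.55 for Sod3.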

How the results depend on the processing

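The 3 lower calls of Gpx7, Gpx8 and Sod3 in HEV against FRC held under all 22 alternatives under PEG and all 21 in controls. In FRC, calls of members are left out under all settings, because the set was built on that contrast. Over all genes FRC calls were 127 higher and 50 lower with no filter and 32 higher and 25 lower with DESeq2. HEV calls under PEG were 73 higher and 68 lower with no filter, 77 and 39 with DESeq2, and 6 and 12 in 1 model of all 24 libraries, against 0 by edgeR. In HEV against FRC controls the higher members were 0 with no filter, against 1, and 0 to 1 with libraries left out, and libraries 10 to 24 gave 908 higher and 1368 lower genes. Under PEG 1 member, Sod2, was higher with DESeq2 size factors, a minimum count of 50, DESeq2, no covariate or the model of all 24 libraries, against 0, and 0 to 2 with libraries left out. Calls of a difference in PEG effects were 17 higher and 21 lower with no filter, 213 and 147 with DESeq2, 0 higher with the i5 index or in libraries 10 to 24, 3 lower with no covariate, and 1 to 6 higher and 0 to 13 lower with libraries left out, against 2 and 0.

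Signs turned for uncalled values only. For PEG in FRC, described without a test, the highest value over the settings was 0.036 for Gpx8 and 0.010 for Sod1. The lowest for Sod2 was -0.054, and Cat turned as given above. For PEG in HEV, Gpx4 became -0.17 with the i5 index and -0.12 in libraries 10 to 24, Gpx7 -0.34 in libraries 10 to 24, Sod3 0.27, 0.54, 0.20 and 1.45 with no covariate, the i5 index, all 24 libraries and libraries 10 to 24, and Lrp1 -0.068 with the epithelial level. With libraries left out, Cat ran from -0.30 to 0.11, Gpx1 from -0.061 to 0.49, Gpx4 from -0.31 to 0.24 and Sod3 from -1.55 to 0.85. For HEV against FRC under PEG, Gpx4 became 0.11, 0.046 and 0.29 with no covariate, all 24 libraries and libraries 10 to 24 (-0.22 to 0.27 with libraries left out), and Gpx2 0.25 in libraries 10 to 24 (-0.55 to 0.22). In controls Gpx4 became 0.62 in libraries 10 to 24 (-0.32 to 0.13), Gpx2 0.016 with all 24 libraries, and Cat ran from -0.065 to 0.57. For the difference of effects, Gpx1 became -0.028 with no filter and -0.038 with the i5 index (-0.22 to 0.29), Gpx4 -0.17 and Gpx7 -0.45 in libraries 10 to 24 (-0.084 to 0.40 and -0.092 to 0.92), Sod2 0.17 with the i5 index, Gpx2 1.18 and 1.72 with the i5 index and in libraries 10 to 24 (-2.41 to 0.34), Chac1 1.68 in libraries 10 to 24 (-6.78 to 1.77), and Sod3 ran from -1.42 to 1.02. The cause was not tested. The i5 index could not be fitted for HEV against FRC under PEG, since all FRC PEG libraries carry N503 and all HEV PEG libraries N504. No paired analysis was possible because the labels do not say which FRC and HEV libraries, if any, came from the same mouse. Counts of 1 to 406 reads per library limit Gpx3, Gpx8 and Sod3 in HEV.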
